A study of Homo sapiens with 52 samples.

Results

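The 39 genes described here carry glucose from uptake to pyruvate or answer to low oxygen and were chosen by name from these pathways. They comprise 2 glucose transporters, 15 enzymes of the glycolytic chain, 4 genes that decide the fate of pyruvate, 2 regulators of phosphofructokinase, 3 oxygen-sensing genes and 13 further targets of the hypoxia-inducible factor (HIF). Of 59407 genes counted, 14185 averaged 10 or more normalized counts across the 26 groups and were tested, and 36 of the 39 were among them. LDHA, CA9 and EGLN3 were not tested and are described by their levels.

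The cells were WI-38, normal human fibroblasts from embryonic lung with a limited number of divisions, all wild type and all grown in high-glucose medium, and no group was labelled as kept in low oxygen. Young cells were left untreated or exposed for 24 h to 1 of 3 inducers of senescence, then washed and followed. A population doubling level, of 32 to 46, was labelled for the untreated cells and not for the treated ones. Sodium dodecyl sulfate (SDS, 0.0090%) is a detergent that damages the plasma membrane and gave the PMD-Sen series. High potassium chloride (KCl, 75 mM) gave the Ca2+-Sen series, doxorubicin (DXR, 250 nM), a drug that breaks DNA, gave the DDR-Sen series, and replicatively senescent (RS) cells had stopped dividing at a doubling level of about 52. In each series RNA was taken at the end of the exposure, called day 0, daily to day 4 and then on days 6, 8 and 16, and each of the 26 groups had 2 libraries of bulk messenger RNA. RS cells carry no inducer, so that they differ from the others in age in culture as well as in treatment, and all groups stem from a single cell line. The untreated cells carry no day and are the baseline for every day. In comparisons with them, treatment and time in culture cannot be told apart.

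Glycolysis splits glucose to pyruvate and yields ATP without oxygen. Hexokinase traps glucose in the cell, phosphofructokinase commits it to breakdown, and lactate dehydrogenase and pyruvate dehydrogenase kinases steer pyruvate away from the mitochondria. In low oxygen the prolyl hydroxylases of the EGLN family stop marking HIF1A protein for destruction, and HIF then binds the core letters ACGTG or GCGTG and switches on the transporters, the enzymes and a wider set of genes for acid balance, collagen modification and mitochondrial clearance. HIF is set mainly through the stability of its protein, which these RNA measurements do not show.

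Depth, as rounded totals, was 18847000 and 15193000 counts in the 2 untreated libraries, and it ranged from 19259000 to 51328000 in SDS, from 20429000 to 51181000 in KCl, from 20839000 to 52666000 in DXR and from 46165000 to 55127000 in RS libraries. Values are normalized counts per library on 1 common scale, with library a the deeper library of a group and library b the other. Such values compare a gene between groups, not one gene with another, since they are not divided by length. The study describes the libraries of a group as independent samples, and no pair agreed within counting noise. The 2 RS libraries stood apart from each other: their median difference was 0.207 on the log2 scale over all tested genes, against 0.0803 to 0.183 in the other groups, and 0.336 over the tested members. All 10 fibroblast markers were present in every group, with a summed level from 180130 in KCl day 0 to 460491 in KCl day 8 and 436353 in untreated cells. Epithelial markers summed to between 185 and 1574 normalized counts, with 3 of 5 under 10 in every group. Endothelial markers summed to between 19.5 and 129, with 2 of 4 under 10 in every group, and white blood cell markers to between 0.694 and 19.0, with 4 of 5 under 10 in every group. LMNB1, a lamin lost in senescence, was lower than in untreated cells in 25 of 25 comparisons, and CDKN1A, an inhibitor of the cell cycle, was higher in 24. The other checks of cell state were less uniform. MKI67, TOP2A and CCNB1, genes of dividing cells, were lower in 20, 21 and 22. CDKN2A, another inhibitor of the cell cycle, was higher in 19 and lower in 1. On KCl day 16 the log2 differences were -1.08 for MKI67, -1.20 for TOP2A, -0.94 for CCNB1 and -1.27 for LMNB1. In RS cells they were -5.92, -4.80, -2.71 and -5.22. CDKN1A and CDKN2A were at 0.55 and 0.39 on KCl day 16 and at 0.64 and 1.57 in RS cells. The part of cell state in differences of members between KCl day 16 and the other late groups was not tested.

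After SDS and KCl more members were called at the end of exposure than on any later day, and after DXR as many were called on day 0 as on day 16. On day 0, 15 of 36 tested members rose and 11 fell after SDS, 16 rose and 11 fell after KCl, and 10 rose and 7 fell after DXR (limma, adjusted p under 0.05 against untreated cells). The same comparisons called 29.3% of all tested genes higher and 30% lower after SDS, 28.9% and 33.4% after KCl, and 20.3% and 23.2% after DXR, in all 59.3%, 62.3% and 43.5%. In RS cells 13 members rose and 7 fell, against 25.3% and 25.6% (50.8% in all) of all genes, and 13 instead of 20 were called without RS library b. The median log2 difference of the members was -0.0023 after SDS, 0.16 after KCl and 0.066 after DXR on day 0 and 0.19 in RS cells, and over all tested genes it was -0.0022, -0.0363, -0.0127 and 0.0049. All of these comparisons share the 2 untreated libraries. In bulk RNA, fewer cells that express a gene and less of its RNA per cell cannot be told apart.

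**Figure D1:**
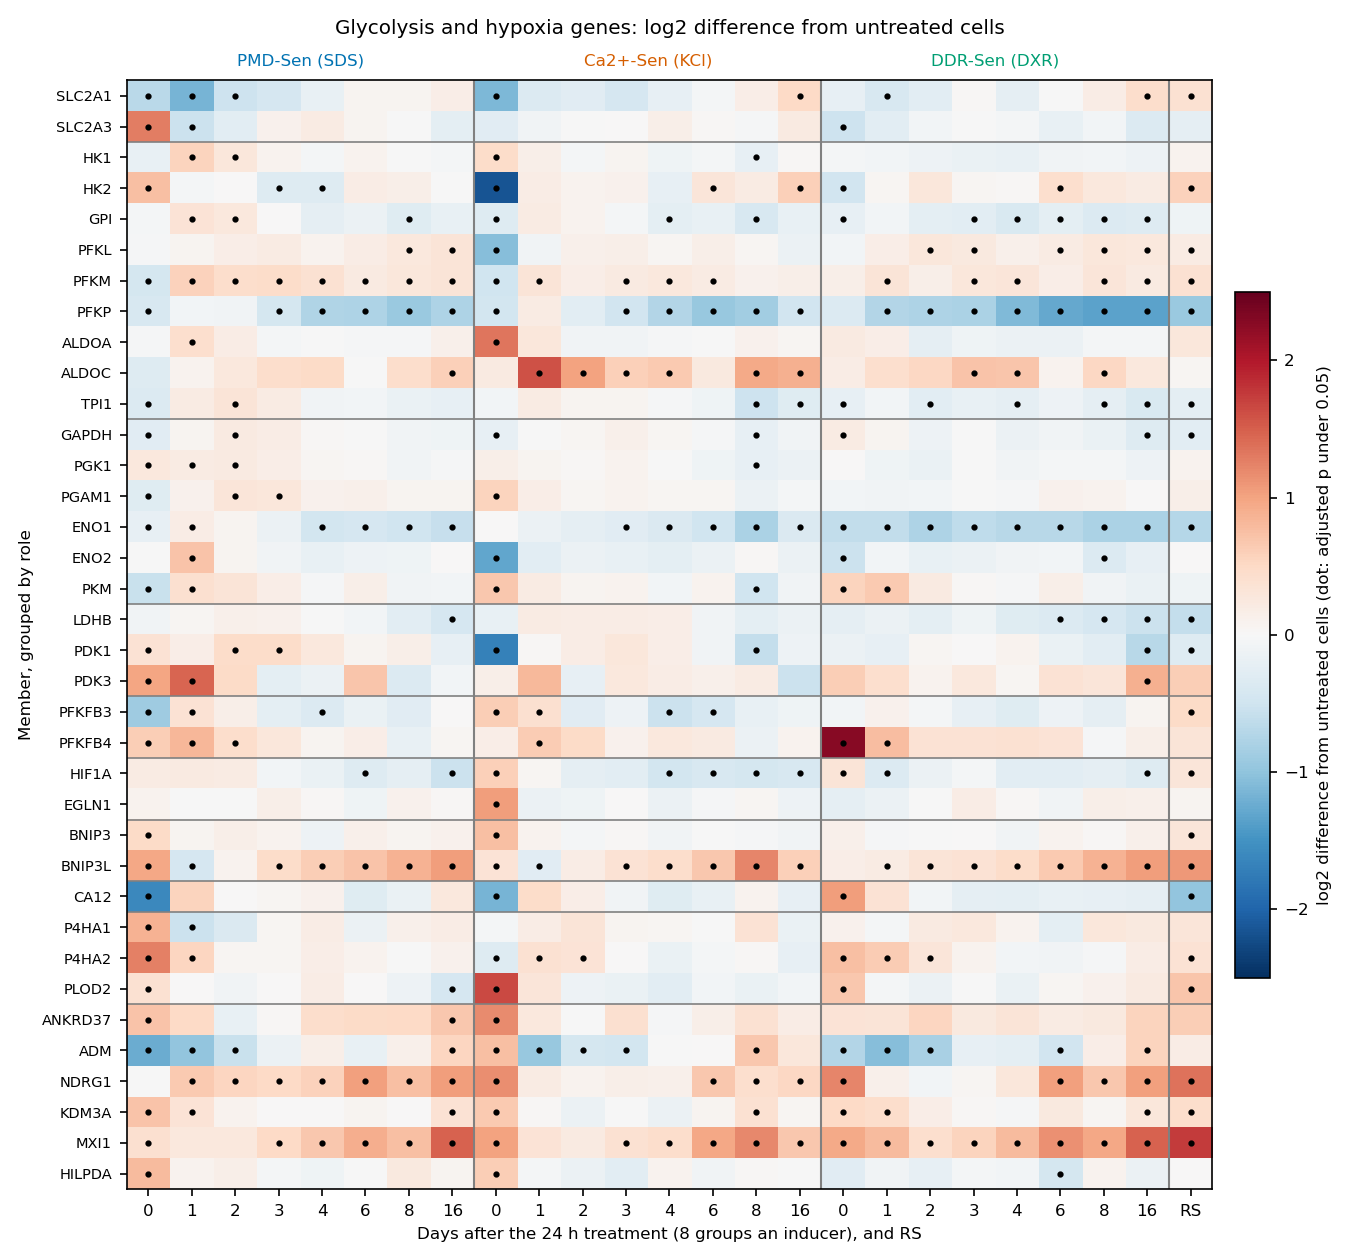
Log2 difference from untreated cells of each of the 36 tested members (rows, by role) in each of the 25 treated or senescent groups (columns, by inducer and day); dots mark an adjusted p under 0.05. Day 0 columns hold opposite colours for the same gene in different series, and MXI1 and BNIP3L stay above and PFKP and ENO1 below untreated cells in most late columns.

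After SDS, 19 members differed from untreated cells on day 1 (33.7% of all tested genes), 12 on day 2 (22.9%), 8 on day 3 (24.1%), 8 on day 4 (27.2%), 7 on day 6 (34.3%), 8 on day 8 (29.3%) and 14 on day 16 (47.4%). After KCl the counts were 7 on day 1 (18.8%), 3 on day 2 (6.45%), 7 on day 3 (17.7%), 9 on day 4 (22.7%), 9 on day 6 (29.9%), 16 on day 8 (46.5%) and 10 on day 16 (18.5%). After DXR they were 12 on day 1 (32.8%), 8 on day 2 (21.7%), 8 on day 3 (24%), 8 on day 4 (27.8%), 11 on day 6 (39.6%), 12 on day 8 (40.4%) and 17 on day 16 (50.3%). KCl day 2 had the fewest calls, among the members as among all genes. Several of these counts rested on single libraries. Without untreated library a they were 11 on SDS day 1, 3 on SDS day 2, 4 on SDS day 3 and 1 on KCl day 3. Without untreated library b they were 5 on SDS day 3, 1 on KCl day 2, 3 on KCl day 3, 5 on KCl day 4 and 5 on DXR day 2. Without library a of the group itself they were 4 on SDS day 2, 1 on KCl day 2, 2 on KCl day 3, 5 on KCl day 4, 5 on DXR day 2 and 5 on DXR day 3. Without library b of the group itself they were 7 on SDS day 2, 5 on SDS day 3, 4 on KCl day 1, 1 on KCl day 2, 1 on KCl day 3, 6 on KCl day 16, 5 on DXR day 2 and 7 on DXR day 6.

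**Figure D2:**
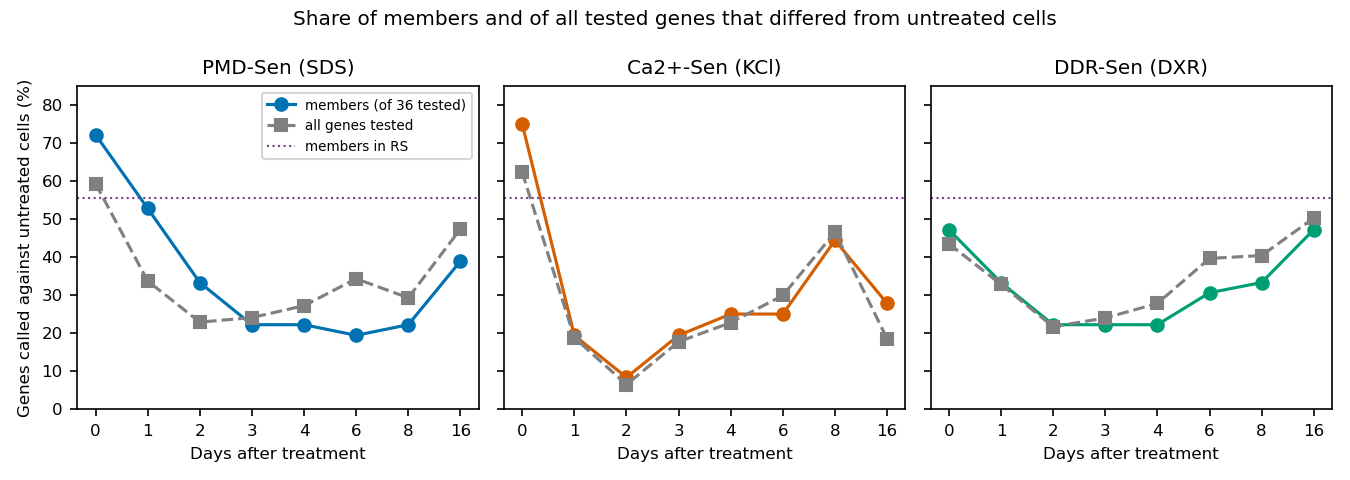
Share of genes (percent) that differed from untreated cells at an adjusted p under 0.05 on each day after each inducer, for the 36 tested members and for all 14185 tested genes. The dotted line is the share of tested members called in RS cells. On day 0 after SDS and KCl, 72.2% and 75% of the tested members were called, beside 59.3% and 62.3% of all genes.

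The 2 glucose transporters moved apart on SDS day 0. SLC2A3, the neuronal-type transporter with high affinity for glucose, read 1536 and 1269 normalized counts in the untreated libraries and 3635 and 3197 on SDS day 0, a log2 difference of 1.29 ± 0.15 (SE; adjusted p = 1.01e-08). The SDS day 0 libraries were the highest of all groups, and on day 1 SLC2A3 had dropped by 1.81 on the log2 scale (adjusted p = 7.53e-12). SLC2A1, the transporter of most dividing cells, read 6136 and 6944 in untreated cells, 3919.7 and 4259 on SDS day 0 and 2908 and 2964 on SDS day 1, with log2 differences from untreated cells of -0.68 and -1.15 (adjusted p = 4.78e-04 and 1.86e-06). It also fell on KCl day 0, to 2906 and 3069 (-1.13 ± 0.16, adjusted p = 3.21e-07). The libraries of SDS day 1 and KCl day 0 lay below both untreated libraries without overlap. On KCl day 0 SLC2A3 had a log2 difference of -0.28 (adjusted p = 0.1), and on DXR day 0 it fell by 0.51 (adjusted p = 0.00561; 0.106 without untreated library a). Late, SLC2A1 was called higher on KCl day 16, DXR day 16 and in RS cells, at 9479.6 and 9032, 7863 and 9842 and 6404 and 11310.4. The RS value rested on library b, since its log2 difference of 0.38 became -0.028 without it, and the calls on KCl and DXR day 16 were lost without untreated library a. They were also lost without either KCl day 16 library and without DXR day 16 library b, respectively.

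Hexokinase showed the widest split of the enzymes. HK2, the inducible hexokinase that binds mitochondria, fell after KCl and rose after SDS. Its libraries read 1505 and 1419.5 untreated, 295 and 357 on KCl day 0, 2615 and 2290.1 on SDS day 0 and 1021 and 1071 on DXR day 0. The 4 groups did not overlap. The log2 differences from untreated cells were -2.17 ± 0.12 after KCl (adjusted p = 6.27e-16), 0.74 ± 0.12 after SDS (adjusted p = 2.09e-06) and -0.48 ± 0.12 after DXR (adjusted p = 0.0011). SDS and KCl differed from each other by 2.91 ± 0.12 (adjusted p = 1.76e-19). By KCl day 1 HK2 read 1681 and 1657, 2.36 above day 0 on the log2 scale (adjusted p = 5.84e-17), and its difference from untreated cells was 0.19 ± 0.12 (adjusted p = 0.263). HK1, the housekeeping hexokinase, ranged from 3673 to 6255 and went the other way on KCl day 0, where it rose by 0.45 (adjusted p = 1.63e-05). Late, HK2 rose in RS cells (2326 and 2026; 0.57 ± 0.12, adjusted p = 1.34e-04) and on KCl day 16 (2272 and 2157; 0.60 ± 0.12, adjusted p = 5.62e-04).

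Among the other upper enzymes, the 3 phosphofructokinases did not move as 1 gene. PFKP, the platelet form, was lower than in untreated cells in 20 of 25 comparisons and higher in 0. It read 3789 and 3704 untreated, 1894 and 2515 on SDS day 16, 2749 and 2598 on KCl day 16, 1274 and 1738 on DXR day 16 and 1529 and 2503 in RS cells. Both libraries of each of these groups were below both untreated libraries. The log2 differences were -0.78, -1.33 and -0.94 after SDS, after DXR and in RS (adjusted p = 6.12e-05, 9.99e-09 and 3.57e-06). It was -0.49 on KCl day 16 (adjusted p = 0.0181), a call lost without any 1 of its 4 libraries. PFKM, the muscle form, was higher in 17 of 25 comparisons and lower in 2, the day 0 groups of SDS and KCl (-0.44 and -0.50). PFKL, the liver form, fell by 1.06 on KCl day 0 (adjusted p = 8.81e-13) and was higher in 8 comparisons.

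ALDOC, a minor aldolase, rose after KCl exposure had ended. It read 97.8 and 91.6 untreated, 105 and 116 on KCl day 0, 277 and 297 on day 1 and 193 and 191 on day 2. The day 1 libraries were the highest of all groups, 1.59 ± 0.19 above untreated cells (adjusted p = 1.39e-06) and 1.16 ± 0.19 above DXR day 1 (adjusted p = 2.42e-05). ALDOA, the main aldolase of muscle, rose by 1.33 on KCl day 0 (adjusted p = 5.31e-10), with 487 and 520.4 normalized counts against 188 and 212. ALDOA (chr16:30064279-30070420, GRCh38.p14) is overlapped by another annotated gene, LOC112694756, and its values are uncertain. Of the 39 members, 20 are overlapped by another annotated gene, among them PFKM, TPI1, BNIP3, PFKFB4, ANKRD37 and HIF1A. How reads in such overlaps were counted is not given in the sources used here. GPI, which turns glucose phosphate into fructose phosphate, was higher in 2 and lower in 10 comparisons within levels of 1763 to 2938. TPI1, triose phosphate isomerase, was higher in 1 and lower in 9 within 6664 to 11979.

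The later steps of glycolysis run from GAPDH to pyruvate kinase. ENO1, the general enolase, was lower than in untreated cells in 19 of 25 comparisons and higher in 1. It read 27336 and 26139.8 untreated and 16017 and 16770.0 in RS cells, and its group means were 17942 on SDS day 16, 20894 on KCl day 16 and 15350.5 on DXR day 16. The log2 differences were -0.71, -0.58, -0.36 and -0.80, each with an SE of about 0.072 and the largest adjusted p at 0.00228. On DXR the fall was present from day 0 (-0.61 ± 0.072, adjusted p = 1.54e-06), whereas SDS cells were 0.80 ± 0.072 above DXR cells on day 1 (adjusted p = 6.94e-08). ENO2, the neuronal enolase, fell on KCl day 0 from 464 and 424 to 158 and 205 (-1.30 ± 0.14, adjusted p = 2.82e-09) and rose on SDS day 1 to 678 and 772 (0.70 ± 0.14, adjusted p = 2.65e-04). PKM, pyruvate kinase, which makes the pyruvate, fell by 0.56 on SDS day 0 and rose by 0.67 on KCl day 0 and 0.56 on DXR day 0 (adjusted p = 6.56e-04, 1.25e-04 and 0.00109), from group means of 60742 to 41160.3, 96372 and 89616. The span of levels was narrower for GAPDH, often used as a reference gene, at 32527 to 47612 with calls in 2 comparisons upward and 5 downward. PGK1, a kinase that makes ATP, ranged from 5713 to 7882, and PGAM1, phosphoglycerate mutase, from 5701 to 10322. Of the 39 members, 17 have named pseudogenes in the annotation, among them GAPDH, PGAM1, ENO1, PKM and TPI1 and, outside glycolysis, BNIP3. How reads shared with them were counted is not given in the sources used here.

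The PDK kinases hold pyruvate back from the mitochondria. PDK1, a known HIF target, fell on KCl day 0 from 558 and 567 to 135 and 225 normalized counts (-1.68 ± 0.12, adjusted p = 3.36e-13) and was 1.71 higher again on KCl day 1 (adjusted p = 1.90e-13). Neither KCl day 0 library reached the lower untreated library. PDK1 fell late on KCl day 8, to 388 and 358 (-0.59 ± 0.12, adjusted p = 1.66e-04), and on DXR day 16, to 359 and 338 (-0.69 ± 0.12, adjusted p = 1.82e-05). It was also lower in RS cells, which makes 4 of 25 comparisons, and higher in 3, on SDS days 0, 2 and 3. Its highest group mean was 778 on SDS day 3, against 563 in untreated cells. PDK3, a sister kinase at low level, read 10.9 and 11 untreated, 25.1 and 20.6 on SDS day 0 and 28.2 and 36.1 on SDS day 1. It rose by 0.99 on SDS day 0 (adjusted p = 0.0107; 0.0818 without SDS day 0 library a) and by 1.46 on day 1 (adjusted p = 9.20e-04). Its SE of 0.330 was the widest of the members. LDHB, the lactate dehydrogenase of oxidative tissues, was lower in 5 of 25 comparisons and higher in 0. Those included RS cells (-0.60 ± 0.13, adjusted p = 1.64e-04) and DXR day 16 (-0.54 ± 0.13, adjusted p = 5.81e-04). LDHA, the lactate dehydrogenase of glycolytic tissues, read only 10.9 and 7.73 normalized counts in untreated cells and 4.25 to 16.6 over all groups, under the level for a test. The reason for this low level was not tested, and the LDHA values are uncertain. LDHA has 6 named pseudogenes in the annotation. GAPDH has 65 and PGAM1 has 13, and such numbers do not show how shared reads were counted.

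The PFKFB enzymes set the level of the sugar phosphate that drives phosphofructokinase. PFKFB4 showed the largest rise of any member on DXR day 0, from 114 and 139 to 508 and 748 normalized counts (2.28 ± 0.16, adjusted p = 3.22e-13). Both DXR day 0 libraries were above the libraries of every other group. The difference was -2.11 ± 0.16 on the log2 scale for KCl against DXR (adjusted p = 3.90e-13), and by DXR day 1 it had dropped by 1.51 (adjusted p = 3.02e-08) to 229 and 205. On SDS day 0 PFKFB4 rose by 0.61 (adjusted p = 0.00112). PFKFB3, its sister with strong kinase activity, read 1079.9 and 1317 untreated, 644 and 649 on SDS day 0 and 1703 and 1978 on KCl day 0. It fell by 0.88 after SDS and rose by 0.62 after KCl (adjusted p = 4.70e-07 and 8.26e-05).

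**Figure D3:**
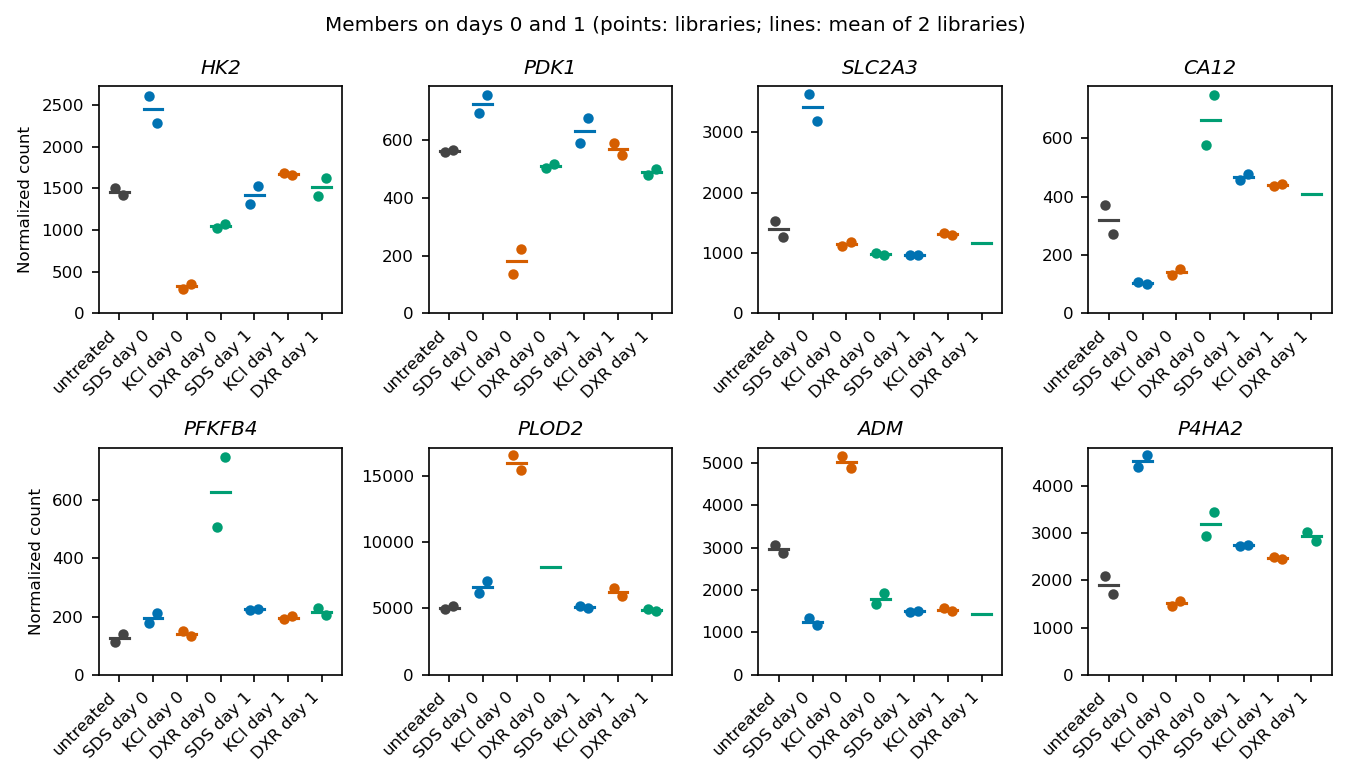
Normalized counts per library of 8 members in untreated cells and on days 0 and 1 after SDS, KCl and DXR; points are libraries. HK2 and PDK1 are lowest on KCl day 0, SLC2A3 and P4HA2 are highest on SDS day 0, PFKFB4 and CA12 are highest on DXR day 0, and PLOD2 is highest on KCl day 0.

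In the oxygen-sensing system, KCl day 0 was the group in which both tested genes rose. HIF1A, the oxygen-regulated subunit, read 6231 and 7540.3 untreated and 9556 and 11215 on KCl day 0 (0.59 ± 0.12, adjusted p = 8.79e-05), and later fell on KCl day 8 to 5165 and 4979 (a call lost without untreated library b) and on SDS day 16 to 5253 and 4248 (-0.54 ± 0.12, adjusted p = 5.07e-04). EGLN1, the main prolyl hydroxylase, read 367 and 299 untreated and 652 and 712 on KCl day 0 (1.04 ± 0.12, adjusted p = 1.76e-08). It was called in 1 of the 25 comparisons, that one. EGLN3, the inducible hydroxylase, was at 0 to 6.04 normalized counts in all groups and was not tested. HIF1A was lower on day 16 than in RS cells in all 3 series, with log2 differences of -0.85 for SDS, -0.71 for KCl and -0.63 for DXR (adjusted p = 1.22e-05, 3.53e-05 and 0.00205). The RS libraries read 8356 and 8620.1.

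The promoters of 4 members that moved strongly but oppositely on KCl day 0, and of MXI1, are shown from 250 bases before to 50 bases after an annotated start (RefSeq, GRCh38.p14). HK2 and PDK1 fell there, and PLOD2 and EGLN1 rose. Capitals mark ACGTG and GCGTG on either strand. CACGTG reads as ACGTG on both strands and is then counted once per strand. The HK2 window is chr2:74834920-74835219 on the plus strand, the PDK1 window chr2:172555840-172556139 on the plus strand, the PLOD2 window chr3:146161135-146161434 on the minus strand, the EGLN1 window chr1:231422238-231422537 on the minus strand and the MXI1 window chr10:110209981-110210280 on the plus strand. Each sequence runs in the direction of its gene.
HK2: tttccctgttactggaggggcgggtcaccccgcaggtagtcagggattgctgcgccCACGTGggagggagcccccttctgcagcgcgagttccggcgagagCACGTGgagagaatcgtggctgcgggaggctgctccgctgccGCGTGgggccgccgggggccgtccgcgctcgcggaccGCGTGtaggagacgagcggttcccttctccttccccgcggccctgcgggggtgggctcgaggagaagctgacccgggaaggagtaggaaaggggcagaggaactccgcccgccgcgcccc
PDK1: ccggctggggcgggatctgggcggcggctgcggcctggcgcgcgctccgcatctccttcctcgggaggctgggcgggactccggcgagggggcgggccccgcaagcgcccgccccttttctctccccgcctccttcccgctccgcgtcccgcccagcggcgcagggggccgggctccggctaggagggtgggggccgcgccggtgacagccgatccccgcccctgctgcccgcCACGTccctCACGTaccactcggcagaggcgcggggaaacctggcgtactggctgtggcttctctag
PLOD2: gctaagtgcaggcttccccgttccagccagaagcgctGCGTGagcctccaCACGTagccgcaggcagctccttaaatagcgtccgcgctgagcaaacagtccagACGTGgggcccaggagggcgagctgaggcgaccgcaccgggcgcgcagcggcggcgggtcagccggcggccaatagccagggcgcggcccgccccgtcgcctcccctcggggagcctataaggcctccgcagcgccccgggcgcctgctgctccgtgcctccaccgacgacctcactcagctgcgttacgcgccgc
EGLN1: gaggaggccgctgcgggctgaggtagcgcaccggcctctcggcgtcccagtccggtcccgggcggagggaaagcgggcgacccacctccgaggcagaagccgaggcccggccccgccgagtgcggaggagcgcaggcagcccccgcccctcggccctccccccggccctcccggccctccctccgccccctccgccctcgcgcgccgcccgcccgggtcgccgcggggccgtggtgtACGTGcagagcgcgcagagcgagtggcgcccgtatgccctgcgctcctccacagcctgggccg
MXI1: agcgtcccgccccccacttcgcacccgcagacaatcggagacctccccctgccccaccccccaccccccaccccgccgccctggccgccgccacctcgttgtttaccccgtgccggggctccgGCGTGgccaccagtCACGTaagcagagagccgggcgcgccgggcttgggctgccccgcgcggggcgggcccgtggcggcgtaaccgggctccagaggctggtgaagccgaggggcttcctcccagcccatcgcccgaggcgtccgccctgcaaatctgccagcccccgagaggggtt

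The HK2 window holds ACGTG 4 times, as 2 copies of CACGTG, and GCGTG 2 times, the PDK1 window ACGTG 2 times, the PLOD2 window ACGTG 2 times and GCGTG 1 time, the EGLN1 window ACGTG 1 time and the MXI1 window ACGTG 1 time and GCGTG 1 time. For a gene with several annotated starts, the window with the most ACGTG was shown. The genes shown were picked, and all of their windows hold ACGTG. Whether these letters go with the direction of a change was not tested. Of the 39 members, 35 had promoters in the table, 61 in all. ACGTG was present in 41% of these 61 promoters and 21.4% of all 35116 promoters, GCGTG in 44.3% and 36.5%, and CACGTG, which overlaps ACGTG, in 13.1% and 7.26%. A match of letters does not show that HIF binds there.

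BNIP3 and BNIP3L mark mitochondria for removal. BNIP3 has 46 named pseudogenes in the annotation, so that its values are less certain, and BNIP3L has 0. BNIP3L, the form known from red cell maturation, was higher than in untreated cells in 20 of 25 comparisons. It read 2102 and 2075 untreated, 4221 and 3914 on SDS day 0, 4832 and 4928 on KCl day 8 and 3997 and 4860.0 in RS cells. Each of these groups lay above both untreated libraries. The log2 differences were 0.96 ± 0.071, 1.22 ± 0.071 and 1.08 ± 0.071 (adjusted p = 1.13e-12, 2.53e-13 and 2.83e-13). It was lower in 2 comparisons, SDS day 1 (-0.42 ± 0.071, adjusted p = 3.79e-05) and KCl day 1 (-0.28 ± 0.071, adjusted p = 0.00598; 0.0732 without KCl day 1 library a). BNIP3L on day 16 was at 3989 and 4671 after SDS, 3237 and 3112 after KCl and 4119 and 4521 after DXR, with SDS 0.44 above KCl (adjusted p = 3.94e-05). BNIP3, its sister, rose on day 0 after KCl, from 1276 and 1493 to 2174 and 2502 (0.76 ± 0.11, adjusted p = 7.89e-07), and after SDS, to 1909 and 1957 (0.49 ± 0.11, adjusted p = 4.03e-04). In RS cells the log2 difference of BNIP3 was 0.30 (adjusted p = 0.0233), lost without RS library b or untreated library a.

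CA12, a carbonic anhydrase on the cell surface that takes part in acid balance, moved in opposite directions at the end of exposure. It read 371 and 270.4 untreated, 107 and 99.9 on SDS day 0, 133 and 150.3 on KCl day 0 and 575 and 746 on DXR day 0. The 4 groups did not overlap. The log2 differences were -1.61 after SDS, -1.16 after KCl and 1.04 after DXR, each with an SE of 0.25 (adjusted p = 2.61e-06, 2.14e-04 and 0.00119). In RS cells its 2 libraries read 276 and 91, one within and one below the untreated range. The RS difference of -0.99 (adjusted p = 0.00154) became -0.20 without RS library b (adjusted p = 0.394). CA9, the carbonic anhydrase best known as a marker of hypoxia, was at 0.462 to 8.16 normalized counts in all groups and was not tested.

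Of the collagen-modifying enzymes, P4HA1 and P4HA2 are catalytic subunits of the collagen prolyl hydroxylase and PLOD2 is a lysyl hydroxylase. P4HA2 read 2083 and 1709 untreated, 4394 and 4647 on SDS day 0, 2933 and 3438 on DXR day 0 and 1458 and 1569 on KCl day 0. It rose by 1.26 after SDS and 0.75 after DXR (adjusted p = 3.77e-13 and 5.24e-08). SDS exceeded KCl by 1.58 ± 0.091 (adjusted p = 8.16e-16). After KCl P4HA2 fell by 0.32 (adjusted p = 0.00297; 0.15 without untreated library a). P4HA1 rose by 0.87 on SDS day 0 (adjusted p = 2.03e-04) and ranged from 1752 to 4665. PLOD2 had its peak on KCl day 0, where the libraries read 16524 and 15409.8 against 4927 and 5200.1 untreated (1.66 ± 0.16, adjusted p = 2.15e-10). By KCl day 1 it had dropped by 1.35 (adjusted p = 1.05e-08), at 6544 and 5957. On DXR day 0 PLOD2 rose by 0.68 (adjusted p = 7.53e-04). In RS cells it read 6051 and 10933, and the difference of 0.68 (adjusted p = 5.61e-04) became 0.26 without library b (adjusted p = 0.132). The summed fibroblast markers, of which the collagens COL1A1 and COL1A2 make up most, were lowest on KCl day 0, and their part in these values was not tested.

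Of the remaining targets, MXI1 was called higher most often. This gene, a partner of MAX that opposes MYC, was higher than in untreated cells in 21 of 25 comparisons and lower in 0. Its libraries read 165 and 147 untreated, 409 and 465 on SDS day 16, 251 and 245 on KCl day 16, 438 and 429 on DXR day 16 and 516 and 537 in RS cells. No untreated library reached any of these. The log2 differences were 1.48 ± 0.13, 0.67 ± 0.13, 1.47 ± 0.13 and 1.75 ± 0.13 (adjusted p = 1.64e-10, 4.70e-04, 6.45e-11 and 1.46e-12). KCl day 16 stood below the other late groups, -1.08 ± 0.13 from RS (adjusted p = 8.97e-08) and -0.80 ± 0.13 from DXR (adjusted p = 1.50e-05). On KCl day 8 the libraries had read 341 and 373.

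NDRG1, a stress gene induced by hypoxia, was higher in 16 of 25 comparisons and lower in 0. It read 2062 and 2569 untreated, 4671 and 6140.5 on DXR day 0, 2549 and 2457 on DXR day 1, 4774 and 4539.7 on DXR day 16 and 6585 and 5286 in RS cells. Thus after DXR it rose by 1.22 on day 0 (adjusted p = 5.99e-10), dropped by 1.10 a day later (adjusted p = 5.73e-08) and rose again late, by 1.02 on day 16 (adjusted p = 1.88e-08). In RS cells NDRG1 was 1.36 ± 0.12 above untreated cells (adjusted p = 4.68e-11). On SDS day 0 its log2 difference was -0.0019 ± 0.12 (adjusted p = 0.991), and on KCl day 0 it rose by 1.17 (adjusted p = 4.84e-10).

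ADM encodes the vessel-widening peptide adrenomedullin and was lower in 10 and higher in 4 comparisons. It was higher on KCl days 0 and 8 and on day 16 after SDS and DXR. It read 3068 and 2881 untreated, 1339.6 and 1172 on SDS day 0, 5158 and 4880.0 on KCl day 0, 1567 and 1497 on KCl day 1 and 1659 and 1929.8 on DXR day 0. The KCl group rose by 0.75 on day 0 (adjusted p = 1.64e-05) and dropped by 1.71 a day later (adjusted p = 3.52e-12), while the differences on day 0 were -1.25 after SDS and -0.73 after DXR (adjusted p = 3.24e-09 and 5.31e-05). On day 1 ADM was below untreated cells in all 3 series, with log2 differences of -0.99 for SDS, -0.96 for KCl and -1.06 for DXR (adjusted p = 1.83e-06, 1.59e-05 and 3.43e-07). KDM3A, a histone demethylase, was higher in 9 comparisons and lower in 0, including all 3 groups of day 0 (0.72, 0.66 and 0.51 on the log2 scale for SDS, KCl and DXR). HILPDA, a lipid droplet protein, rose by 0.79 on SDS day 0 and 0.62 on KCl day 0 (adjusted p = 6.08e-05 and 9.32e-04). ANKRD37 rose by 1.19 on KCl day 0 (adjusted p = 3.35e-04) within levels of 13.6 to 38.1.

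**Figure D4:**
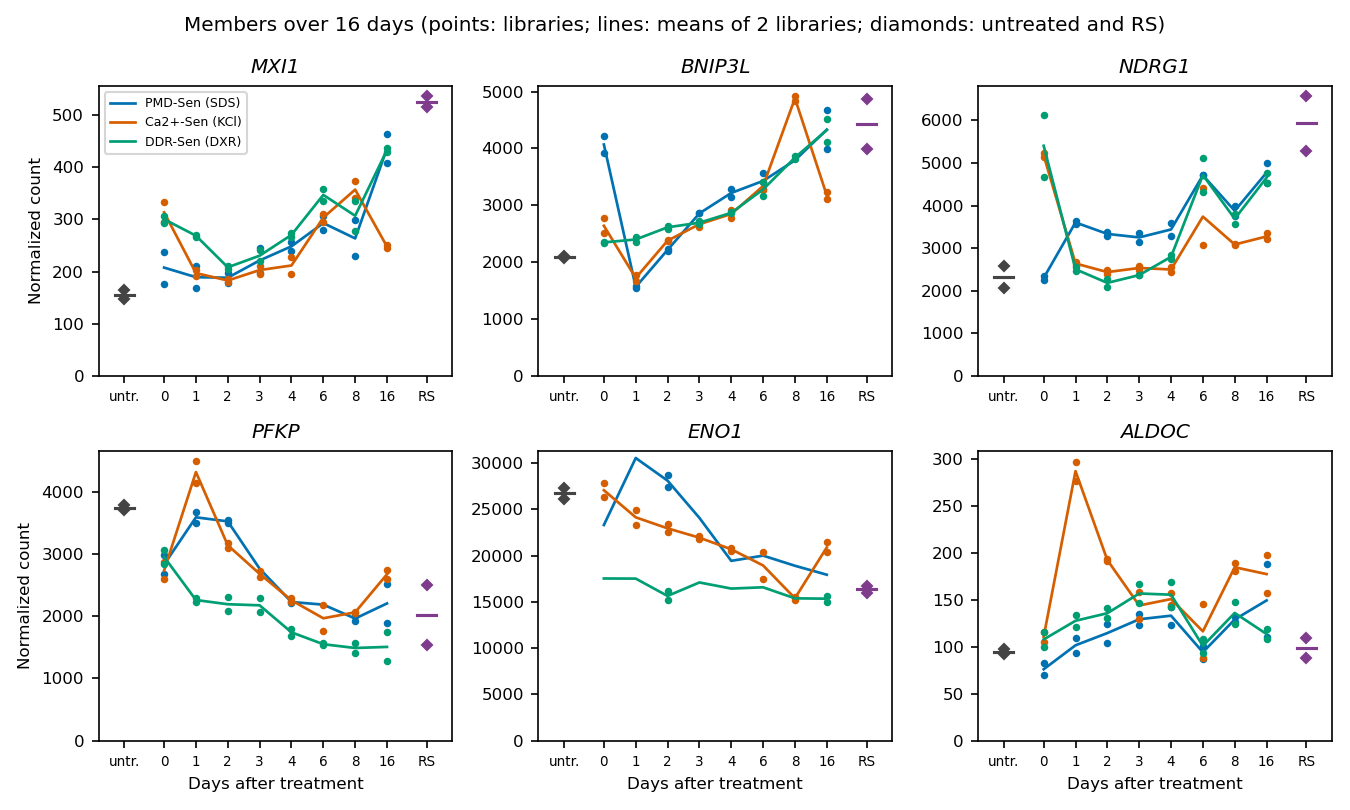
Normalized counts of MXI1, BNIP3L, NDRG1, PFKP, ENO1 and ALDOC on each day after SDS, KCl and DXR, with the untreated and RS levels; points are libraries where they could be separated and lines join group means, with days evenly spaced. MXI1 and BNIP3L peak on day 8 after KCl and are lower on day 16, while after SDS and DXR they are highest on day 16 among days 1 to 16.

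From day 0 to day 1 the members changed in 30 cases after KCl, 15 upward and 15 downward (33.8% and 29.6% of all tested genes, 63.5% together), in 24 after SDS, 14 upward and 10 downward (31.4% and 29%, 60.4% together), and in 7 after DXR, 3 upward and 4 downward (12.6% and 11.1%, 23.7% together). The 3 upward calls after DXR were HK2 (0.53), ENO2 (0.47) and PFKL (0.23), and the 4 downward ones PFKFB4, NDRG1, PLOD2 (-0.73) and HIF1A (-0.67). The ENO2 call was lost without DXR day 0 library b or DXR day 1 library a, and the PFKL call without DXR day 0 library a. After SDS the largest changes in either direction were the rise of CA12, by 2.16, and the fall of SLC2A3. After KCl they were the rises of HK2, PDK1 and CA12 (1.63) and the fall of ADM.

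The series could be compared with each other on each day. On day 0, 24 of 36 members differed between SDS and DXR (60.6% of all tested genes), 27 between SDS and KCl (67.3%) and 22 between KCl and DXR (64.8%). On day 1 the counts were 17 (39.3%), 10 (21.5%) and 15 (28.3%). On day 2 they were 18 (25.8%), 11 (12.9%) and 6 (11.5%). SDS exceeded DXR on day 2 in 14 members and lay below it in 4 (15.8% and 9.98% of all genes). The higher ones included ENO1 (0.85), PFKP (0.69), NDRG1 (0.61), TPI1 (0.59) and GPI (0.50). Apart from the count between SDS and DXR on day 1, these day 1 and day 2 counts changed by over 1.5 times when 1 library was left out. They were 6 between SDS and KCl on day 1 without SDS library b or KCl library a, and 7 and 8 between KCl and DXR on day 1 without KCl library a and b. On day 2 they were 9 and 10 between SDS and DXR without SDS library a and DXR library a, and 0, 5, 4 and 0 between SDS and KCl without SDS library a, SDS library b, KCl library a and KCl library b. Between KCl and DXR on day 2 they were 1, 2 and 1 without KCl library a, KCl library b and DXR library a.

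Few members differed between the series on days 4 and 6. Between SDS and KCl, limma called 0 members on day 3, 0 on day 4 and 0 on day 6, with 5, 5 and 1 at an unadjusted p under 0.05, where 0.226%, 0.127% and 0.176% of all genes were called. Between SDS and DXR it called 0 on day 4 and 0 on day 6 (10 and 6 at an unadjusted p under 0.05; 0.931% and 1.38% of all genes). On day 3, 8 members differed between SDS and DXR (8.83% of all genes), which was 1 without SDS library b and 3 without either DXR library. Between KCl and DXR the counts were 1 on day 3 (5.74%), 2 on day 4 (3.15%) and 1 on day 6 (5.46%). The day 3 count was 0 without KCl library b and 3 without DXR library a. The day 4 count was 0 without KCl library b and 1 without any other of its libraries, and the day 6 count was 4 without KCl library b and 0 without any other. Between SDS and KCl on day 6 it was 1 without KCl library b. A count of 0 does not show that the members acted alike. On day 8, 11 members differed between SDS and KCl (22.7% of all genes) and 10 between KCl and DXR (25%), and 1 differed between SDS and DXR (2%). The day 8 counts rested on single libraries: between SDS and KCl they were 4, 6 and 3 without SDS library b, KCl library a and KCl library b. Between KCl and DXR they were 3, 1 and 4 without KCl library a, KCl library b and DXR library b, and between SDS and DXR 0 without SDS library b or DXR library b. On day 16, 9 members differed between SDS and KCl (26.2% of all genes; 5 without KCl library a) and 14 between KCl and DXR (31.1%). Relative to DXR day 16, KCl day 16 was higher in PFKP (0.84), ALDOC (0.63) and PDK1 (0.56) and lower in PDK3 (-1.43), MXI1, NDRG1 (-0.51) and BNIP3L (-0.44), and the ALDOC call was lost without library a of either group. The 3 members that differed between SDS and DXR on day 16 (6.28% of all genes) were PFKP (0.55), PDK1 (0.49) and PLOD2 (-0.65). That count was 7 without SDS library a, 1 without DXR library b and 0 without SDS library b or DXR library a.

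Day 16 was also set against RS cells. DXR day 16 differed from RS in 1 member, HIF1A (4.1% of all tested genes), SDS day 16 in 7 (22.4%) and KCl day 16 in 19 (32%). These counts moved with single libraries. For DXR they were 10 without RS library a, 7 without RS library b and 2 without DXR library b, and for SDS 13 without RS library a. KCl day 16 was lower than RS in 13 members (15.4% of all genes), among them PDK3 (-1.16), MXI1, NDRG1 (-0.85), P4HA2 (-0.57) and BNIP3L (-0.47), and higher in 6 (16.6%), among them ALDOC (0.84) and ENO1 (0.35). The PDK3 difference was not called without RS library a or KCl library a. SDS day 16 was lower than RS in PLOD2 (-1.11), HIF1A, HK2 (-0.58), PFKFB3 (-0.47) and P4HA2 (-0.26) and higher in CA12 (1.25) and ALDOC (0.55). The CA12, ALDOC, PFKFB3 and P4HA2 differences were not called without RS library b.

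The wider hypoxia response was examined in 32 further genes of the HIF system, of which 30 were tested. On day 0, 15 rose and 7 fell after SDS, 9 rose and 9 fell after KCl, and 8 rose and 6 fell after DXR, with median log2 differences of 0.44, 0.0778 and 0.0444 over the list, against 59.3%, 62.3% and 43.5% of all tested genes called in either direction. ANGPTL4, a lipase inhibitor, rose in all 3 groups, by 3.95, 1.28 and 1.40 on the log2 scale (adjusted p = 3.66e-13, 2.12e-04 and 1.36e-04). VEGFA, the main vessel growth factor, rose by 1.91 after SDS and 1.20 after KCl (adjusted p = 2.76e-13 and 4.29e-09). DDIT4, an inhibitor of mTOR, rose by 2.13 after SDS and 1.35 after KCl (adjusted p = 1.70e-07 and 1.48e-04). LOX, which cross-links collagen, was 1.99 after SDS and -1.07 after KCl (adjusted p = 1.99e-13 and 1.58e-08). In RS cells 14 rose and 1 fell (median 0.30; 50.8% of all genes called). On day 16 the counts were 13 and 4 after SDS, 5 and 1 after KCl and 14 and 3 after DXR. The share of all genes called on day 16 was 47.4%, 18.5% and 50.3%. AK4, a mitochondrial adenylate kinase, rose by 3.56 in RS cells, 2.48 on DXR day 16 and 1.74 on SDS day 16 (adjusted p = 2.90e-10, 3.26e-07 and 7.96e-05).

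Of 32 genes next to glycolysis, 20 were tested. On day 0, 11 rose and 4 fell after SDS, 6 rose and 8 fell after KCl, 5 rose and 3 fell after DXR, and in RS cells 11 rose and 4 fell. The list medians were 0.34, -0.0956, 0.18 and 0.36 on the log2 scale. In these 4 comparisons 59.3%, 62.3%, 43.5% and 50.8% of all tested genes were called. HKDC1, a hexokinase at 24.8 normalized counts in untreated cells, rose on SDS day 0 to 342 and 235 and on KCl day 0 to 234 and 254, by 3.46 and 3.24 (adjusted p = 1.54e-11 and 5.81e-11). KCl day 0 was thus low in HK2 and high in HKDC1. TXNIP, a gene of the wider hypoxia list that removes glucose transporters from the surface, was -3.38 on KCl day 0 and rose by 2.50 on KCl day 8 (adjusted p = 1.17e-12 and 4.71e-09). It rose by 2.15 on SDS day 16, 1.90 on DXR day 16 and 1.39 in RS cells (adjusted p = 5.43e-08, 3.27e-07 and 3.60e-05). TIGAR, a p53 target that slows glycolysis, rose by 2.20 on DXR day 0 (adjusted p = 2.25e-16). Of the 7 pentose phosphate genes, all tested, 4 fell and 1 rose on SDS day 0, 4 fell and 1 rose on KCl day 0, and 4 fell and 0 rose in RS cells, where 59.3%, 62.3% and 50.8% of all genes were called, and PGD, the second dehydrogenase of the pathway, fell by 1.01 on KCl day 0.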

How the data were processed

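Total mRNA libraries of 52 samples, 2 in each of 26 groups taken from the sample labels, were analysed. Per the submitters' processing notes, reads were handled with Trim Galore, HISAT2, HTSeq, featureCounts and DESeq2 against GRCh38 (hg38), without versions. The 52 deposited tables, of which 25 were distinct, are the authors' comparisons of a group with untreated cells. Their log2 fold changes, SEs, statistics and p-values were not used. The 1 column used, a signal, is the mean that the authors made of the normalized counts of the 4 libraries compared.

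Counts of single libraries were recovered from these means as the whole numbers that give each printed value. Tables of 15 digits were solved fully, and in the others, 15 in number, the libraries of 91.06 to 99.57% of genes were separated. Those genes held 35.13 to 76.34% of the reads. Elsewhere the mean of the 2 libraries entered with weight 2. On simulated data every separated value was right, and 0.97% of values in tables of fewer digits were not separated. The simulated libraries of a group were drawn with little spread between them, so recovery of widely differing libraries was not tested. Size factors recomputed from the recovered counts differed from those found by at most 3.4e-05 (relative) in fully separated tables and 2.4e-03 in the others. Recovered libraries carry no replicate number.

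Genes with a mean of at least 10 were tested with limma 3.58.1 (R 4.3.3) on log2(normalized count + 1), with all 26 groups in 1 model, a mean-variance trend and Benjamini-Hochberg adjustment over 14185 genes. A fold change on this scale is understated for low genes. The test was checked on simulated data for KCl day 1 against untreated cells: a log2 change of 0.5 was called in 28.4% of 67 genes, 1 in 94% of 67 and 2 in 100% of 66. Alternatives were a pseudocount of 5, no filter or a minimum of 100, library totals as scale, no trend, a fold threshold and leaving out each library. Where only 1 library of a group was left, it was assumed to vary like the others. A gene whose 2 libraries were not separated in a group kept their mean when a library of that group was left out. Values are given in full for the 2 members of each role with the widest range of levels, and other members by range and counts. Values of other members and pathway genes named beside a count were picked after their values were seen, the latter among those with a log2 difference of at least 1 in size. The members, lists and tests were chosen with earlier results of these data known. Limits on levels cover counting error and the spread between 2 libraries only.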

Additional observations from a re-analysis of the deposited data

Results flagged for a closer look

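In 20 cases a member was called higher than in untreated cells in one series and lower in another on the same day, with the difference between the 2 series also called (limma, adjusted p under 0.05). Values below are differences on the log2 scale, the first series named minus the second, and each rests on 2 libraries a group. Between SDS and DXR on day 0 the differences were 1.80 for SLC2A3 (adjusted p = 9.32e-12), 1.23 for HK2 (adjusted p = 1.39e-10), -0.49 for GAPDH (adjusted p = 1.98e-05), -1.12 for PKM (adjusted p = 3.86e-07) and -2.65 for CA12 (adjusted p = 2.19e-10). Between SDS and DXR on day 1 the differences were 0.80 for ENO1 (adjusted p = 6.94e-08) and -0.62 for BNIP3L (adjusted p = 4.58e-08). Between SDS and DXR on day 2 the difference was 0.59 for TPI1 (adjusted p = 8.80e-06). Between SDS and KCl on day 0 the differences were 2.91 for HK2 (adjusted p = 1.76e-19), -0.86 for PGAM1 (adjusted p = 7.14e-11), -1.23 for PKM (adjusted p = 8.95e-08), 2.05 for PDK1 (adjusted p = 1.36e-15), -1.50 for PFKFB3 (adjusted p = 5.30e-12), 1.58 for P4HA2 (adjusted p = 8.16e-16) and -2.0 for ADM (adjusted p = 6.04e-14). Between KCl and DXR on day 0 the differences were -0.42 for GAPDH (adjusted p = 1.04e-04), -2.20 for CA12 (adjusted p = 7.45e-09), -1.07 for P4HA2 (adjusted p = 9.69e-12) and 1.49 for ADM (adjusted p = 6.20e-11). Between KCl and DXR on day 1 the difference was -0.48 for BNIP3L (adjusted p = 5.88e-06). Some of the underlying differences from untreated cells were not called when 1 library was left out. These were GAPDH on KCl and DXR day 0, PGAM1 and PDK1 on SDS day 0, P4HA2 on KCl day 0, ENO1 on SDS day 1, BNIP3L on KCl and DXR day 1, and TPI1 on SDS and DXR day 2. The opposite signs share the untreated libraries as their baseline, whereas the differences between the series do not use them. Groups of 2 libraries were too small to examine single libraries as outliers.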

How the results depend on the processing

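No paired analysis was possible because the libraries recovered from the means carry no replicate number. Against untreated cells, no called member difference changed sign when the fold threshold, pseudocount, scale, trend or filter was changed. In all, 303 of the member calls were made against untreated cells, 210 between inducers on the same day, 27 between day 16 and RS and 61 between day 1 and day 0. With a log2 difference of at least 1 in size also required these were 42, 31, 4 and 17. With a pseudocount of 5 they were 303, 211, 27 and 62, with library totals as scale 303, 214, 29 and 61 (a shift of any group by at most 0.065 on the log2 scale), with no mean-variance trend 288, 201, 26 and 59, with no filter on low values 249, 179, 25 and 58, and with a mean of at least 100 they were 305, 208, 28 and 63. In 52 fits that left out 1 library each, the counts ranged from 232 (without untreated library a) to 333, from 186 to 237, from 21 to 42 (without RS library a) and from 57 to 65. Leaving out each library of the 2 groups compared in turn, 174 of 303, 106 of 210, 12 of 27 and 51 of 61 calls held every time. Where the 2 libraries of a group were not separated for a gene, their mean stayed in the fit and nothing was left out. Such calls count as held unless a library of the other group lost them. Only 16 of the 36 tested members were separated in every group. GAPDH and PKM were separated in 11 of 26 groups, ENO1 in 13 and TPI1 in 19. Among the called differences, 3 changed sign without 1 library: SLC2A1 in RS against untreated cells and CA12 in KCl day 16 against RS without RS library b, and HK2 on KCl day 6 against untreated cells without KCl day 6 library b. An alternative chosen after seeing the data left out both RS libraries, and the comparisons not using RS then gave 309 calls in place of 283, 237 in place of 210 and 65 in place of 61. With only groups whose libraries were separated for every gene, the comparisons against untreated cells among them gave 117 calls in place of 120. LDHA, CA9 and EGLN3 were under the level for a test, and the cause was not tested. The simulated test called 28.4% of changes of 0.5 on the log2 scale, so that small changes may have gone uncalled.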
